A study of Mus musculus with 2 samples.

Results

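Proline and hydroxyproline handling was followed through 9 genes of 23284 listed in each library: the carriers Slc6a20a, Slc6a20b and Slc36a1, the breakdown enzymes Prodh2, Prodh and Pepd, and the synthesis enzymes Aldh18a1, Pycr1 and Pycrl. The genes were picked by symbol from their role, knowing that Prodh2 and Slc6a20b had some of the lowest knockout to wild-type ratios in these libraries. Their ratios are therefore given as a description and support nothing by themselves. The study sequenced polyadenylated RNA from small intestinal epithelial cells of mice with genotype miR-215+/+ (wild type) and miR-215-/- (knockout). It has 1 library per genotype, so there is no replicate check and no p-value, and "higher" and "lower" compare the knockout library with the wild-type library. The mice's strain, sex, age and treatment, how many were pooled, and how the deletion was made were not given in the sources used here.

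Proline and hydroxyproline are imino acids, amino acids whose side chain closes into a ring with the backbone nitrogen. The gut takes them up as free imino acids through sodium-driven and proton-driven carriers and as small peptides. Collagen is rich in both, so dietary and body collagen supply them. Proline dehydrogenase in the mitochondrion turns proline into pyrroline-5-carboxylate, which can go on to glutamate, ornithine and citrulline. Enterocytes are known for making citrulline this way. Hydroxyproline has a dehydrogenase of its own and ends as pyruvate and glyoxylate.

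The microRNA that the knockout lacks, miR-215, pairs with messages through bases 2 to 8 of its mature strand. miR-192 is printed beside it because it shares that seed, in capitals below, from RefSeq on GRCm38.p6.
miR-215-5p (chromosome 1, 185313610 to 185313630, plus strand): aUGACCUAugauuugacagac
miR-192-5p (chromosome 19, 6264857 to 6264877, plus strand): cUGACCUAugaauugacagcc
The matching DNA heptamer, TAGGTCA, was searched on the sense strand of the longest annotated 3' UTR of each gene. It was present in 1344 of 20997 genes, 6.40%, and in 1 of the 9 members, Slc36a1. A match is a string of letters and not a shown target.

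Levels are in FPKM, which divides fragments by transcript length in kilobases and by library depth, so they can be compared between genes. A gene of 2 kb at 1 FPKM rested on an estimated 17.6 fragments in wild type and 18.3 in the knockout. Intervals below are 95% counting intervals (exact Clopper-Pearson for folds) from such estimated fragment numbers. They hold counting error alone, and how animals or preparations vary is not in them. Of the members, 8 reached 1 FPKM in a library, and Pycr1 did not. On the scale log2(FPKM + 1), 3 of these 8 were at least 2-fold lower (Prodh2, Slc6a20b and Slc6a20a) and 0 were at least 2-fold higher. Among all 11504 genes that reached 1 FPKM, 3.38% were at least 2-fold apart, 2.04% lower and 1.34% higher. These are 235 and 154 genes, but which direction held more turned with the scaling: 185 were lower and 209 higher with the knockout values rescaled to equal sums, and 193 and 199 with equal upper quartiles. Of the members past 2-fold, Slc6a20a, at a log2 ratio of -2.02, was the nearest to the limit. Of those not past it, Prodh, at 0.88, was the nearest. The median log2 ratio was -0.44 over the 8 members and -0.05 over all genes.

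**Figure D1:**
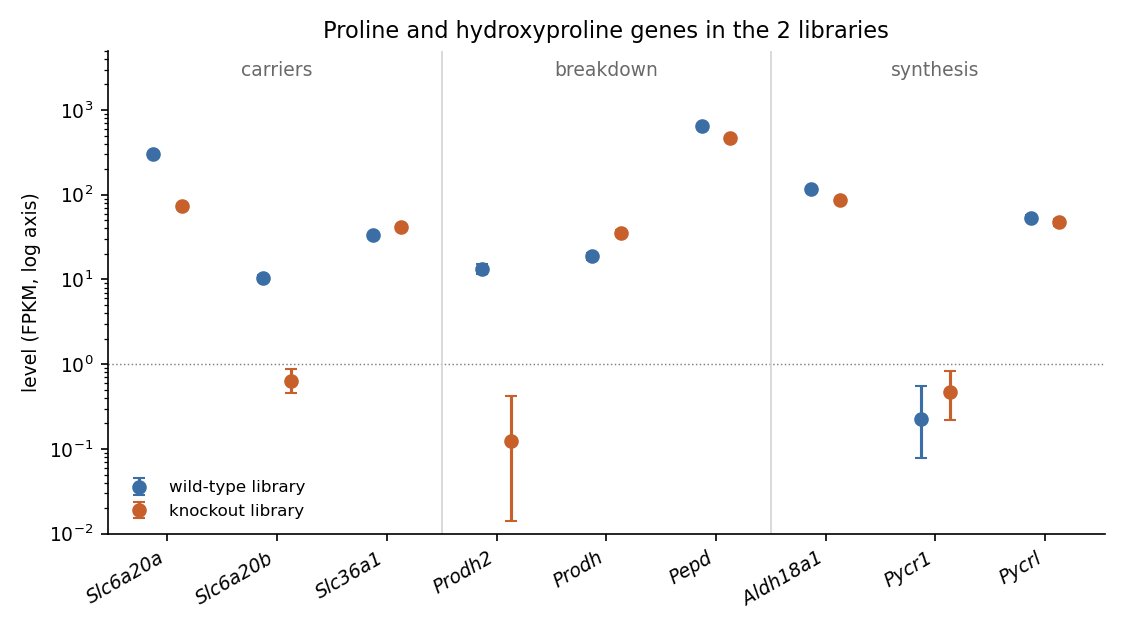
Level of each member in FPKM (log axis) in the wild-type library (blue) and the knockout library (orange), 1 library each, with 95% Poisson counting intervals as bars, which are hidden behind the points at high counts. The dotted line marks 1 FPKM. Prodh2, Slc6a20b and Slc6a20a stand lower in the knockout library, and Pycr1 is under 1 FPKM in both.

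Slc6a20a, the sodium- and chloride-coupled imino acid carrier of the brush border, was the most abundant of the 3 carriers in both libraries. Its place is chromosome 9, 123634770 to 123678885 (mm10, minus strand), and further positions below are on the same build. It was at 304 FPKM in wild type against 74.1 in the knockout, 4.11-fold lower (3.90 to 4.32), from about 7310 and 1850 fragments. In the order of all genes by level, Slc6a20a moved from place 401 to place 1350. It stayed 1.80 times above Slc36a1 in the knockout library, against 9.21 times in the wild-type library.

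Slc6a20b, its neighbour at 123590800 to 123632565 on the same strand, is a close paralog whose own role as a carrier is less settled. It was at 10.4 FPKM in wild type against 0.642 in the knockout, 16.1-fold lower (11.6 to 23.1), about 574 against 37 fragments. With the shortest annotated transcript the estimates were 44 and 3 fragments and the interval was 4.89 to 76.7. Slc6a20b was 3.40% of the level of Slc6a20a in wild type and 0.866% in the knockout library. The counting intervals of the 2 folds did not overlap.

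The pair could share fragments, so their sequences were compared. The coding sequences aligned over 1732 positions, of which 92.7% were identical. The longest identical run was 321 bases, spanning exons 6 to 8 of the 11 exons of each RefSeq-linked transcript. The middle 100 bases of that run, in exon 7 of both genes, are printed once because a read inside them cannot be placed.
Slc6a20a (chr9:123655018-123655117, minus strand) and Slc6a20b (chr9:123603742-123603841, minus strand): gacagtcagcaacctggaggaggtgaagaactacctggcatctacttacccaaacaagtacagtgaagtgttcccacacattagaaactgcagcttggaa
The stretch of 100 aligned bases with the most differences, 21, is in exon 1 of both, and capitals mark the bases that differ.
Slc6a20a (chr9:123678706-123678805, minus strand): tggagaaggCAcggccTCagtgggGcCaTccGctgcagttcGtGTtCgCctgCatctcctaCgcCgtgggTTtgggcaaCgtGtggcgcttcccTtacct
Slc6a20b (chr9:123632130-123632229, minus strand): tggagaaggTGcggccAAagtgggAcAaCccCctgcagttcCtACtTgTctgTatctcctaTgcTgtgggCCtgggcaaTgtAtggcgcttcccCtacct
Of all stretches of 50 bases in the annotated transcripts, 15.3% of those of Slc6a20a also occur in Slc6a20b, and 7.24% of those of Slc6a20b in Slc6a20a. At the level of Slc6a20a, counting each fragment as a single point, about 859 would fall in the identical run in wild type and 217 in the knockout library. Both numbers exceed all fragments estimated for Slc6a20b. They include fragments that reach past the run, so fewer would lie wholly inside it. The assignment of shared fragments was not given in the sources used here, so the level of Slc6a20b is uncertain, and the part of shared fragments in it was not tested. Sacm1l, read from the opposite strand, overlaps the last 1801 bases of Slc6a20b and was at 55.7 and 43.9 FPKM. Use of strand in the counting was not given in the sources used here.

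Slc36a1, a proton-coupled carrier of proline, glycine and other small amino acids that is found at the brush border and on lysosomes, did not share the decrease. It lies on chromosome 11 at 55204350 to 55236330, on the plus strand, and was at 33.1 FPKM in wild type against 41.1 in the knockout. The fold was 1.24 (1.16 to 1.33). The 3 carriers summed to 348 FPKM in wild type against 116 in the knockout. Slc36a1 is the member whose 3' UTR, 3692 bases against a median of 962 over all genes, holds the seed heptamer, at 3 places. The sites are printed with the heptamer in capitals, named by the base of the 3' UTR at which it starts.
Slc36a1 site at base 611: tttcctctgtgTAGGTCAcagtgctgccc
Slc36a1 site at base 1308: cacctggcttcTAGGTCAgtcatcttagg
Slc36a1 site at base 1702: tgcgtgacttcTAGGTCAcaggatgggaa
The other 8 members hold none in the UTRs searched, among them Slc6a20b, whose 3' UTR of 4193 bases is longer.

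Prodh2, the mitochondrial hydroxyproline dehydrogenase that starts hydroxyproline breakdown, had the lowest ratio of the members. It lies on chromosome 7 at 30493622 to 30513402, on the plus strand. It was at 13.2 FPKM in wild type against 0.123 in the knockout, about 215 fragments against 2. It was 107-fold lower (30.6 to 928). With the shortest annotated transcript the fragments were 64 and 1 and the interval 11.5 to 2667. The level of 2 fragments is under the floor of 3, so the size of the decrease is poorly known. Both intervals hold counting error alone, and the spread between animals or preparations would add to them. By level, Prodh2 stood at place 5278 of all genes in wild type and 14113 in the knockout library.

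Prodh, the proline dehydrogenase, went the other way. It lies on chromosome 16 at 18060357 to 18090203, on the minus strand, and was at 18.8 FPKM in wild type against 35.3 in the knockout, 1.88-fold higher (1.66 to 2.13). Its log2 ratio of 0.88 ranked 217 from the top among 11504 genes. With the knockout values rescaled to equal sums it was 1.01, just past 2-fold. Prodh2 was at 70.3% of the level of Prodh in wild type and at 0.348% in the knockout library. Their transcripts share no stretch of 50 bases, and the best coding alignment covered 250 positions at 70.4% identity. Dgcr6, on the opposite strand, overlaps 11276 bases of the annotated span of Prodh and was at 60.1 and 44.8 FPKM, lower in the knockout library.

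Pepd, prolidase, splits dipeptides that end in proline or hydroxyproline and was the most abundant member. It lies on chromosome 7 at 34912379 to 35044708, on the plus strand. It was at 646 FPKM in wild type against 466 in the knockout, 1.39-fold lower (1.35 to 1.43). It ranked 186 by level in wild type and 241 in the knockout library.

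**Figure D2:**
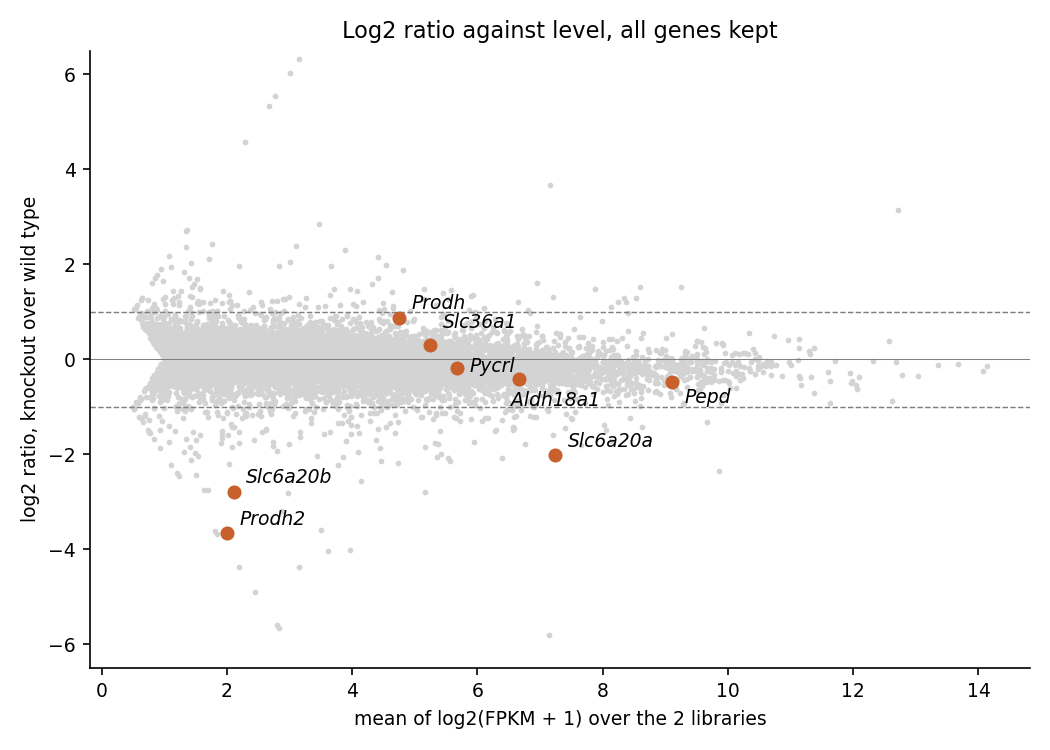
Log2 ratio of knockout over wild type against the mean of log2(FPKM + 1) over the 2 libraries for the 11504 genes that reached 1 FPKM (grey) and the 8 such members (orange). Dashed lines mark 2-fold, and 20 genes outside the vertical range are not drawn. Slc6a20a lies well below genes of like level, and Prodh lies just inside the upper line.

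Aldh18a1 and Pycrl, which make proline, each differed by less than 2-fold between the libraries. Aldh18a1, pyrroline-5-carboxylate synthase, which makes the shared precursor from glutamate, lies on chromosome 19 at 40550257 to 40588463, on the minus strand. It was at 116 FPKM in wild type against 86.8 in the knockout, 1.34-fold lower (1.27 to 1.40). Relative to Prodh it went from 6.17 times to 2.46 times. Pycrl, a cytosolic pyrroline-5-carboxylate reductase, which carries out the last step to proline, lies on chromosome 15 at 75916477 to 75921560, on the minus strand. It was at 53.8 and 47.1 FPKM, 1.14-fold lower (1.02 to 1.28).

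Pycr1, a mitochondrial reductase of the same step, was near the limit of detection. It lies on chromosome 11 at 120635712 to 120643769, on the minus strand, and was at 0.227 FPKM in wild type against 0.475 in the knockout, about 5 and 10 fragments. The fold of 2.09 had a counting interval of 0.599 to 7.18, so no difference was detectable at this depth. Pycrl was thus the more abundant of these reductase genes in both libraries.

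The letters before the starts of the 3 lower members were then read. The 250 bases before each RefSeq start on GRCm38.p6 were searched on both strands for 6 strings: GTTAAT (part of the HNF1 site), AGGTCA (nuclear receptor core), AGAACA (glucocorticoid receptor core), CACGTG (E-box), AGATAA (sites of GATA factors) and TATAAA (the TATA box). Matches are in capitals.
Prodh2 (chr7:30493408-30493657, plus strand): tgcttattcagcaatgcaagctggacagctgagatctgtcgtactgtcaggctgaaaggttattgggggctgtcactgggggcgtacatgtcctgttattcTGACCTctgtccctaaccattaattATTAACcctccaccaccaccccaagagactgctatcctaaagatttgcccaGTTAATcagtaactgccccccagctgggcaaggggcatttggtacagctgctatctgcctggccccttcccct
Slc6a20a (chr9:123678833-123679082, minus strand): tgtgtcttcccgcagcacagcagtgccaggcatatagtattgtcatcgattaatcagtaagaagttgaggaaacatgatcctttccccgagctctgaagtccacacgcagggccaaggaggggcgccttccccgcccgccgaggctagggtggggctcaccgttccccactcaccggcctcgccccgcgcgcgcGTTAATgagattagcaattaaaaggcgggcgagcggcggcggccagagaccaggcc
Slc6a20b (chr9:123632539-123632788, minus strand): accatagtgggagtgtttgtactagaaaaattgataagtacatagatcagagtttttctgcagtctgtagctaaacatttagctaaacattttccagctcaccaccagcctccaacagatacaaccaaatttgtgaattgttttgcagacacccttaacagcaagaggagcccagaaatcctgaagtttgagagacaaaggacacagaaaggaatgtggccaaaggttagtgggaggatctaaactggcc
The gene starts given above came from another annotation, GENCODE M21, and lie inside these 3 windows. Distances are therefore from the RefSeq starts alone and would differ from the GENCODE starts. The string GTTAAT or its reverse complement occurred at 2 places before Prodh2, 124 and 73 bases before the RefSeq start, and at 1 place before Slc6a20a, 56 bases before it. It also occurred before Slc36a1, whose level was not lower, and in 6.43% of 32851 promoter windows of this length. AGGTCA occurred before Prodh2 and Slc36a1 (14.0% of windows), AGAACA before Slc36a1 (16.1%), and CACGTG before Slc36a1 and Aldh18a1 (6.02%). In Slc36a1 the E-box and the nuclear receptor core overlap. Neither AGATAA (9.99% of windows) nor TATAAA (12.4%) was in the windows of the 8 members that the promoter table holds. The window of Slc6a20b held none of the 6 strings, and its content of G and C was 41.6%, against 61.2% for Slc6a20a and 51.6% for Prodh2.

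Genes beside the lower members were compared by position. Within 500 kb of Prodh2, 35 other genes reached 1 FPKM, and 0 of them were at least 2-fold apart, with a median log2 ratio of -0.13 and a range of -0.62 to 0.81. The largest were Tmem149 (4.41 and 8.49 FPKM), Haus5, a spindle protein gene (2.58 and 5.17 FPKM), AI428936 (0.895 and 1.98 FPKM) and Cox7a1, a respiratory chain subunit gene (435 and 283 FPKM). Within 500 kb of the Slc6a20 pair, 12 others reached 1 FPKM and again 0 were 2-fold apart, with a median of -0.23 and a range of -0.61 to 0.39. Lars2, a mitochondrial leucyl-tRNA synthetase gene, was at 1080 and 792 FPKM, and Tmem158 at 1.41 and 0.583 FPKM. Sacm1l and the chemokine receptor gene Ccr9 (1.30 and 2.01 FPKM), which touch the pair, were the remaining ones of the largest 4. These calls are on the scale log2(FPKM + 1), which understates folds at low levels. As plain folds of FPKM, AI428936 (2.22, interval 0.986 to 5.57) and Haus5 (2.003, interval 1.40 to 2.84) were past 2-fold higher, and Tmem158 (0.413, interval 0.166 to 0.939) past 2-fold lower.

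**Figure D3:**
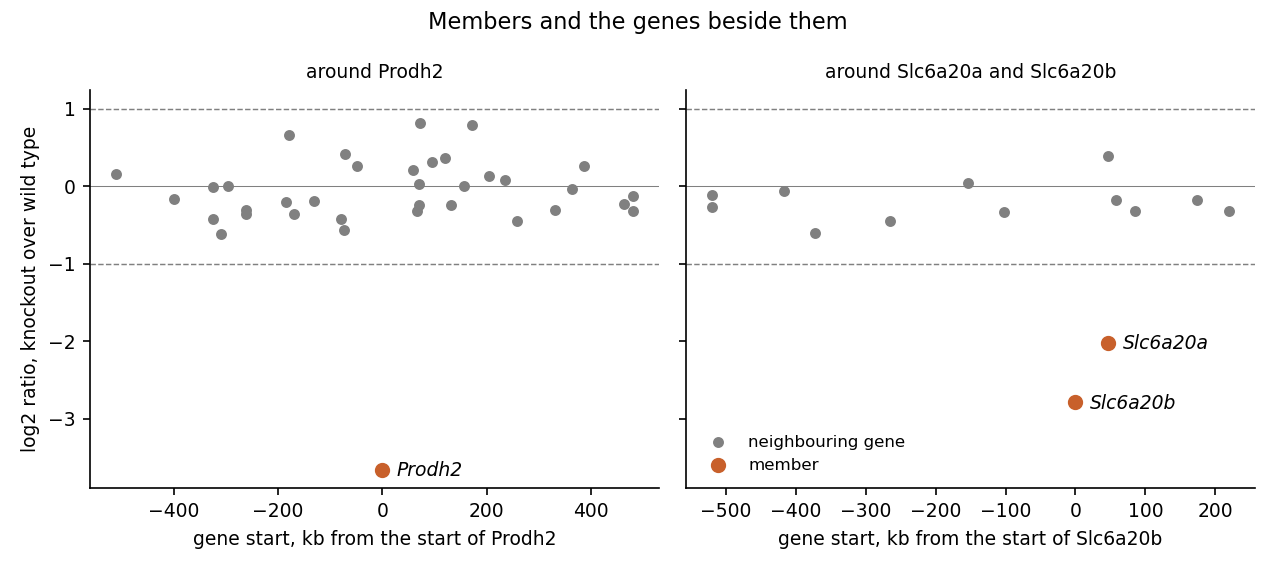
Log2 ratio of knockout over wild type for members (orange) and for other genes of at least 1 FPKM within 500 kb (grey), by distance of the gene start in kb from the start of Prodh2 (left) or Slc6a20b (right). Dashed lines mark 2-fold. The 35 and 12 neighbouring genes lie between the lines on this scale, log2(FPKM + 1).

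The connected pathways were read from 5 lists, against 3.38% of all genes at least 2-fold apart and their median of -0.05. Among other carriers of proline and their accessory proteins, 7 of 11 reached 1 FPKM and 0 were 2-fold apart. Their median was 0.28, but -0.0865 with a minimum of 5 FPKM and 0 without a minimum, so its sign depends on the filter. The carriers Slc6a18 (0.550 and 1.11 FPKM), Slc38a2 (17.6 and 22.1 FPKM), Slc1a4 (0.772 and 1.20 FPKM) and Slc6a7 (2.68 and 3.47 FPKM) were the largest in ratio. As a plain fold, Slc6a18 was at 2.03 (0.971 to 4.38), past 2-fold but with an interval that includes no difference. Slc6a19, the main neutral amino acid carrier and a member of the family of Slc6a20a, was chosen after its value was seen. It was at 532 and 501 FPKM, a fold of 0.942 (0.922 to 0.961). The decrease of Slc6a20a was therefore not shared by Slc6a19 in size.

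Later steps of breakdown had 7 of 11 genes at 1 FPKM, 0 of them 2-fold apart and a median of 0.03. Aldh4a1, which oxidises the products of both dehydrogenases, was at 38.1 and 44.8 FPKM, 1.18-fold higher (1.09 to 1.27). The transaminase genes Got1 (56.3 and 55.0 FPKM) and Got2 (32.0 and 33.3 FPKM) had intervals that include no difference. Grhpr, which reduces the glyoxylate and hydroxypyruvate that such pathways yield, was at 34.4 and 18.1 FPKM, a fold of 0.528 (0.444 to 0.625). Hao2, a peroxisomal hydroxyacid oxidase, was at 1.06 and 0.162 FPKM, about 19 and 3 fragments, a fold of 0.152 (0.0288 to 0.516). With the pseudocount of 1 its log2 ratio was -0.83, inside 2-fold, and with 0.1 it was -2.15, beyond it. Hoga1, the aldolase of the last step of hydroxyproline breakdown, was named after its values were seen, at 1.73 and 1.80 FPKM from 25 and 27 fragments. Along this route the first enzyme, Prodh2, was thus at least 2-fold lower on log2(FPKM + 1), and Aldh4a1, Got2 and Hoga1 were not. Grhpr and Hao2 of the same list were also lower, with counting intervals that exclude no difference.

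Of the 13 enzymes of ornithine, citrulline, arginine and glutamate, 12 reached 1 FPKM, 1 was 2-fold higher, 0 were 2-fold lower and 9 had log2 ratios below 0 (median -0.23). Oat, ornithine aminotransferase, which takes pyrroline-5-carboxylate to ornithine, was at 627 and 533 FPKM. Otc, which makes citrulline, was at 107 and 73.9 FPKM, a fold of 0.691 (0.648 to 0.738). Slc25a15, the mitochondrial ornithine carrier gene, was at 156 and 116 FPKM. Ass1, which joins citrulline to aspartate, was at 1.44 FPKM in the knockout library, about 22 fragments. Its wild-type value was below the worth of 1 fragment, 0.0671 FPKM, so against a floor of 3 fragments in that library it was at least 7.18-fold higher. The lower limit of the counting interval, which includes the error of both numbers, was 5.27-fold. With a pseudocount of 5 its log2 ratio of 1.29 became 0.37, inside 2-fold.

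Of 12 genes for the peptide carrier and peptidases, 11 reached 1 FPKM and 0 were 2-fold apart (median -0.15). Anpep, aminopeptidase N, was at 3395 and 3293 FPKM. Lap3, leucine aminopeptidase, was at 594 and 367 FPKM, a fold of 0.618 (0.601 to 0.636). Of the aminopeptidases that cut before proline, Xpnpep1 was at 333 and 455 FPKM (fold 1.37) and Xpnpep2 at 179 and 132 FPKM (fold 0.737). The cytosolic and the membrane-bound form thus differed in opposite directions. Xpnpep3 was at 0.677 and 1.40 FPKM, a plain fold of 2.07 (1.30 to 3.35), past 2-fold though not so on log2(FPKM + 1). Prolyl hydroxylases make the hydroxyproline of collagen. Of 7 genes for them and their subunits, 2 reached 1 FPKM: P4hb (1439 and 1405 FPKM) and P4ha1 (1.79 and 2.32 FPKM). P4hb encodes a protein disulfide isomerase that serves as the non-catalytic subunit, so its level does not measure hydroxylase. P4ha1 was the only catalytic gene of the list at 1 FPKM.

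**Figure D4:**
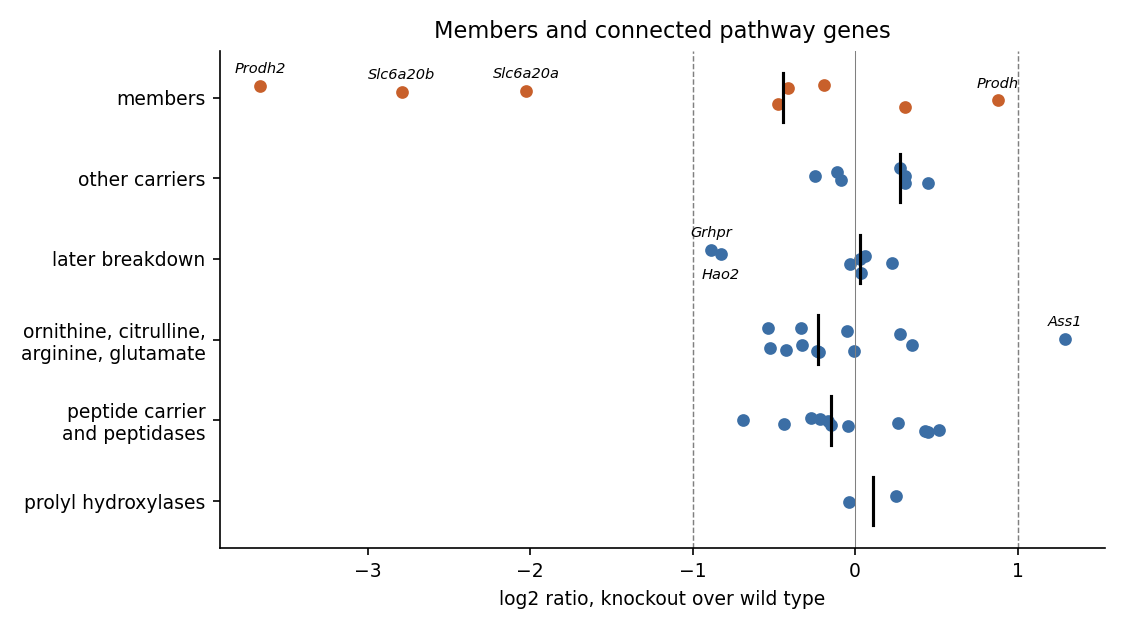
Log2 ratio of knockout over wild type for the 8 members of at least 1 FPKM (orange) and for genes of the 5 connected lists (blue), 1 point a gene, with the list median as a black bar. Dashed lines mark 2-fold, and points are spread vertically only for sight. The members span -3.66 to 0.88, and Ass1 is the single gene of the 5 lists beyond a line.

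Cell composition was read from marker lists, because in bulk RNA fewer cells of a type and less RNA per cell cannot be told apart. All 10 enterocyte markers were detected and 0 were 2-fold apart (median -0.14, range -0.51 to 0.12, sums of 65427 and 57735 FPKM). Of 6 proximal small intestine markers 5 reached 1 FPKM (median -0.19, sums 65.6 and 46.0 FPKM), and all 6 distal markers did (median -0.19, sums 5407 and 4368 FPKM). The proximal markers ranged from -0.72 to 0.11, 1 above 0 and 4 below. The distal ones ranged from -0.55 to 0.58, 2 above 0 and 4 below. Most of the proximal sums was Gata4 (51.0 and 34.6 FPKM), and most of the distal sums Fabp6 (4354 and 3554 FPKM). Villus tip markers had a median of 0.16 over 5 genes (sums 1203 and 1487 FPKM), and crypt markers 0.53 over 6 (sums 174 and 243 FPKM). The crypt markers ranged from -0.54 to 0.94, 5 above 0 and 1 below. The one below was Lgr5, at 1.91 and 1.01 FPKM, a fold of 0.527 (0.353 to 0.769). Most of the crypt sums was Olfm4, at 149 and 202 FPKM. Fibroblast and smooth muscle markers were higher, 4 of 8 by 2-fold (median 1.23), against 1.34% of all genes. Their sums were 11.3 and 40.3 FPKM over 10 genes. As plain folds of FPKM, all 8 were past 2-fold higher, from 2.11 (Tagln) to 22.3 (Myh11). The counting interval of each of these 8 folds excludes no difference. Immune markers had a median of 0.45 over 5 genes, 1 of them 2-fold higher (sums 29.4 and 39.5 FPKM). The part of stromal, immune or crypt cells in the members' ratios was not tested.

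Prodh2 is best known from liver and kidney, so those cells were looked for. The hepatocyte list summed to 5.79 and 3.78 FPKM, with Cyp7a1 and Fgb listed at 0 in both libraries and Alb at 0.335 and 0.108 FPKM. The 2 markers that reached 1 FPKM went in opposite directions. Ttr, the highest of the list in wild type, was at 3.44 and 1.66 FPKM. Tat, the highest in the knockout library, was at 1.04 and 1.69 FPKM, about 22 and 37 fragments. The counting interval of the fold of Tat includes no difference, and that of Ttr does not. The kidney tubule list summed to 0.178 and 0.0603 FPKM, with 4 of 6 markers at 0 in both. The pancreatic acinar list summed to 0.899 and 0.140 FPKM, with Pnlip and Amy2a5 at 0 in both. The part of such cells in the value of Prodh2 was not tested.

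Genes with a like ratio were named by closeness of the log2 ratio, which over 2 libraries is a single number and says nothing of shared control. Nearest to Prodh2, at -3.66, were Snhg9, Hddc3, Gdpd3, Cyp2c29 and Ttc36, between -4.02 and -2.82. Nearest to Slc6a20b, at -2.79, were Rps27, Ttc36, Zfp429, Cyp2c29 and Reg1, between -3.20 and -2.36. Cyp2c29, a xenobiotic-inducible cytochrome P450 gene (21.4 and 1.44 FPKM), and Ttc36 (19.9 and 1.95 FPKM) were near both.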

How the data were processed

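Messenger RNA of small intestinal epithelial cells was measured in 1 wild-type and 1 knockout library. Per the labels' protocols, RNA was taken with RNeasy Mini and libraries were made with TruSeq stranded mRNA. The authors deposited 1 FPKM value per gene and library; no header names the unit, which was inferred from the tool and the values. Per the submitters' processing notes, the build was mm10 and the tools included Cuffnorm 2.2.1, TopHat2 2.0.13 and Bowtie2 2.2.3; settings, annotation and scaling were not given in the sources used here.

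Fragment numbers were estimated from steps between low values, as no counts were given. By these steps, 1 fragment over 1 kb was worth 0.114 FPKM (wild type, 293 genes) and 0.109 FPKM (knockout, 286 genes). A gene's fragment number was its FPKM times the median length in kb of its RefSeq-linked transcripts, divided by that worth. Log2 ratios used a pseudocount of 1 FPKM, and genes needed 1 FPKM in a library to be counted. No model or p-value was used. The fold and interval code was tested on simulated Poisson fragments, drawn with the same worth of 1 fragment. That checks the code alone. Error in the estimated fragment numbers, shared fragments and variation between animals were not simulated. Positions, transcripts and 3' UTRs came from GENCODE M21 (GRCm38), which matched 22825 of 23284 symbols, and promoters and microRNAs from RefSeq. Of the 9 members, 8 had a promoter entry; Pycrl is named only. Coding alignments used BLAST+ 2.17.0. Python 3.11.15, scipy 1.17.1, pandas 2.3.3 and matplotlib 3.10.9 were used.

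The members and lists were chosen with earlier results of these data known. Text names all members, from each pathway list the most abundant gene and up to 4 of largest log2 ratio, the 5 nearest in ratio to Prodh2 and Slc6a20b (of genes at 5 FPKM or more), and up to 4 neighbours of largest log2 ratio at each locus, with exceptions stated. A few genes chosen this way are not reported here.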

Additional observations from a re-analysis of the deposited data

How the results depend on the processing

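Prodh2, Slc6a20b and Slc6a20a were at least 2-fold lower under each of the 6 alternatives tried for pseudocount, filter and scaling. Their log2 ratios ranged from -5.90 to -1.83, -3.82 to -1.44 and -2.04 to -1.89. No member was 2-fold higher except with equal sums, where 1 was, Prodh. Over all genes, 361 were lower and 339 higher (700 in all) with a pseudocount of 0.1, 120 and 60 (180 in all) with a pseudocount of 5, and 97 higher with a minimum of 5 FPKM, against 235 lower and 154 higher as reported. More genes were higher than lower with equal sums (185 lower, 209 higher) and with equal upper quartiles (193 and 199). With equal sums the median over all genes was 0.07, and with equal upper quartiles 0.06, in place of -0.05. The median of the ornithine and glutamate list was then -0.0942 and -0.11, and that of the peptidase list -0.012 and -0.0283, in place of -0.23 and -0.15. The median of the other carriers turned from 0.28 to -0.0865 with a minimum of 5 FPKM and was 0 with none. Of the pathway genes named, Hao2 passed 2-fold with a pseudocount of 0.1 (-2.15) and Ass1 no longer did with 5 (0.37). The log2 ratios of Anpep, Got1 and P4hb, all near 0, changed sign under both scalings. No paired analysis was possible because each group has 1 library, and none could be left out. Depth limits Pycr1, Hao2 and the size of the decrease of Prodh2.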
